A study of Mus musculus with 3 samples.

Results

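The triggering receptors expressed on myeloid cells (TREM) and Tyrobp, the adaptor through which several of them signal, were described here as a set of 7 genes out of the 27179 in the table. The set holds Trem1, Trem2, Trem3, Treml1, Treml2, Treml4 and Tyrobp, chosen by name with their values in these libraries already known, so their levels are given as a description and no test was made on them. Mouse bone marrow stromal cells of wild-type genotype, grown at 3% oxygen, were exposed for 3 days to extracellular vesicles from bone marrow plasma, and messenger RNA of the treated cells was sequenced. For the Ocn-EV preparation the donors carried the CAGS-Snorkel transgene and Ocn-Cre, driven by the osteocalcin promoter of mature osteoblasts. For Prx1-EV they carried CAGS-Snorkel and Prx1-Cre, which works in limb bud mesenchyme and its descendants. The control, All-EV, was prepared from wild-type donors. In each of the 3 preparations the plasma of 5 mice (2 males and 3 females, C57BL/6N, 6 months old) was pooled and passed over HA-antibody beads, and the labels do not tell how such beads held vesicles of wild-type plasma. Each group is 1 culture and 1 library, so no difference below has a replicate check, and "higher" and "lower" compare single libraries.

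TREM proteins are surface receptors with a single immunoglobulin-like domain, carried mainly by macrophages, neutrophils, osteoclasts, microglia and dendritic cells. Trem1, Trem2, Trem3 and Treml4 have hardly any signalling tail of their own. A charged residue in their membrane segment holds them to Tyrobp (also called DAP12), whose activation motif recruits the kinase Syk when the receptor is engaged. Trem2 and Tyrobp are known in bone for their part in osteoclast formation, and loss of either gene in people causes Nasu-Hakola disease, with bone cysts and early dementia.

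The 6 receptor genes lie on the plus strand of chromosome 17 within 134 kb (GRCm38, chr17:48232713-48367176), while Tyrobp lies on chromosome 7 (chr7:30413782-30417582). In order along the chromosome they are Trem1 (chr17:48232713-48246927), Trem3 (chr17:48247677-48258848), Treml4 (chr17:48264200-48275607), Treml2 (chr17:48299390-48312534), Trem2 (chr17:48346401-48352276) and Treml1 (chr17:48359916-48367176). All 7 are annotated as protein-coding. None of them shares an exonic base with another gene in GENCODE vM21, and at most 0.703% of the 31-base words of their transcripts (those of Trem1) also occur in transcripts of another gene, so reads of the members are little exposed to near-identical copies.

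Upstream sequence is shown because the receptor genes are neighbours whose levels differed in direction, and it is given for each member that had a promoter window. RefSeq promoter windows (GRCm38.p6) were found for 4 of the 7 members, and of the 250 bases before each start the part outside the annotated gene is printed, 5′ to 3′ on the plus strand. Capitals mark motifs searched on both strands: GAGGAA (the core letters bound by the myeloid factor PU.1), TGANTCA (AP-1) and CACGTG (an E-box of MITF and TFE factors). A form of the NF-kB site was searched as well.
Trem2, chr17:48346151-48346400: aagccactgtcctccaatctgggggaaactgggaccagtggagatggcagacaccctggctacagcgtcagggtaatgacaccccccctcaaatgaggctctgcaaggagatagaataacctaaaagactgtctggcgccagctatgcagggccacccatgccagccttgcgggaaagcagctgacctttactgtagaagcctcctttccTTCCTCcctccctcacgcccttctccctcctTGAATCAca
Treml1, chr17:48359666-48359915: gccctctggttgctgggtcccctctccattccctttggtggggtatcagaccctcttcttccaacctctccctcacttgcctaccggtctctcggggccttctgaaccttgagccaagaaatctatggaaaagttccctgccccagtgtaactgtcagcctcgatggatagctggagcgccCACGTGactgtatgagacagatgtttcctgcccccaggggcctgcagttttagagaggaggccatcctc
Treml4, chr17:48264045-48264199: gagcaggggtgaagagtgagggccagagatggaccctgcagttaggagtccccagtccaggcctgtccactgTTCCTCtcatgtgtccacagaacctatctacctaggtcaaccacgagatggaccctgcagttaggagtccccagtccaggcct
Trem1, chr17:48232489-48232712: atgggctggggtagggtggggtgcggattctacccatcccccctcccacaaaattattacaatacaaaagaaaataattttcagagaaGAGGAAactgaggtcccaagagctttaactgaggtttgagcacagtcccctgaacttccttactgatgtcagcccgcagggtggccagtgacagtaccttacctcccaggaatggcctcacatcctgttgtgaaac
The PU.1 core letters occurred in the Trem1, Trem2 and Treml4 windows and in 23.3% of all 32851 promoter windows of the table; Treml4 had a second match within the bases not printed. The AP-1 letters occurred in the Trem2 window, 9 bases before its start, and in 6.75% of all windows. The E-box occurred in the Treml1 window and in 6.02% of all. The NF-kB form was in none of the 4 windows and in 1.41% of all. The Treml4 window also held an exact repeat of 40 bases, and 0.274% of all windows held a repeat that long. These matches describe letters and show no binding.

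The libraries held 14233978 (Ocn-EV), 17269204 (Prx1-EV) and 15558165 (All-EV) reads assigned to genes. Both stromal and macrophage markers had reads in every library. The 10 stromal markers took 0.50% (95% interval 0.497 to 0.504) of reads with Ocn-EV, 0.329% (0.326 to 0.331) with Prx1-EV and 0.0797% (0.0783 to 0.0811) with All-EV. The 10 macrophage markers took 0.823% (0.819 to 0.828), 0.720% (0.716 to 0.724) and 1.27% (1.27 to 1.28) in the same order, so the cultures labelled stromal also held macrophage RNA. Lyz2, the lysozyme gene, carried the excess of All-EV in this sum: without it, the other 9 took 0.472% (Ocn-EV), 0.451% (Prx1-EV) and 0.474% (All-EV). Single markers were not even. Of all 10, 3 were at least 1.5-fold higher and 3 lower with Ocn-EV than with All-EV. With Prx1-EV, 3 were higher and 4 lower. The normalised count of Itgam was 8534 (Ocn-EV) and 7532 (Prx1-EV), against 22791 (All-EV), and that of Mertk 2194 and 2199, against 866. Neutrophil markers took 0.00581% with Ocn-EV, 0.00602% with Prx1-EV and 0.00254% with All-EV, most of it Csf3r (811, 1031 and 344 reads). S100a8 (7, 3 and 36 reads) and S100a9 (0, 0 and 6 reads) ran the other way. Ly6g, Elane, Ltf and Retnlg were at 0 reads throughout. Megakaryocyte and platelet markers took 0.0128% with Ocn-EV, 0.0109% with Prx1-EV and 0.0604% with All-EV, nearly all of it Pf4, with Gp6 and Gp9 at 0 throughout. Osteoclast markers took 0.0777%, 0.0866% and 0.0918% in that order, with Calcr and Dcstamp at 0. Dendritic, B cell, and NK and T cell lists had at most 41, 38 and 9 reads in any library. Since the libraries are bulk RNA, fewer cells of a type and less RNA per cell cannot be told apart.

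Trem2 was by far the most abundant of the receptors in reads, and of the 6 it lay nearest to its All-EV level in both comparisons with that library. The gene encodes a receptor for lipids, lipoproteins and cell debris on macrophages. Its normalised count was 12396 with Ocn-EV and 13968 with Prx1-EV, against 12339 with All-EV. The Ocn-EV level was 1.00 times that of All-EV (0.979 to 1.03), the Prx1-EV level 1.13 times that of All-EV (1.10 to 1.16), and the Ocn-EV level 0.887 times that of Prx1-EV (0.867 to 0.909). The interval of the first ratio spans 1, and the other ratios are small though outside counting error. With libraries set to equal totals, which moved the median log2 ratio of all genes to 0.24 (Ocn-EV) and 0.22 (Prx1-EV) against All-EV, the log2 ratios of Trem2 were 0.26 and 0.40, close to that shift in the Ocn-EV library and above it in the Prx1-EV library. Trem2 alone supplied 97.2% (96.9 to 97.5) of the reads of the 6 receptors with Ocn-EV, 97.7% (97.5 to 97.9) with Prx1-EV and 96.8% (96.4 to 97.1) with All-EV. The share of each other receptor was at most 2.09% in any library.

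Tyrobp, the shared adaptor, was lower in both cultures than in the control. It stood at 4013 with Ocn-EV and 3786 with Prx1-EV, against 5699 with All-EV. This was 1.42-fold lower with Ocn-EV (1.36 to 1.48) and 1.51-fold lower with Prx1-EV (1.45 to 1.57), while the Ocn-EV and Prx1-EV levels were 1.06-fold apart (1.01 to 1.11). With equal totals the log2 ratios to All-EV were −0.25 and −0.37, against −0.51 and −0.59 as deposited, so the direction held and the size shrank.

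**Figure D1:**
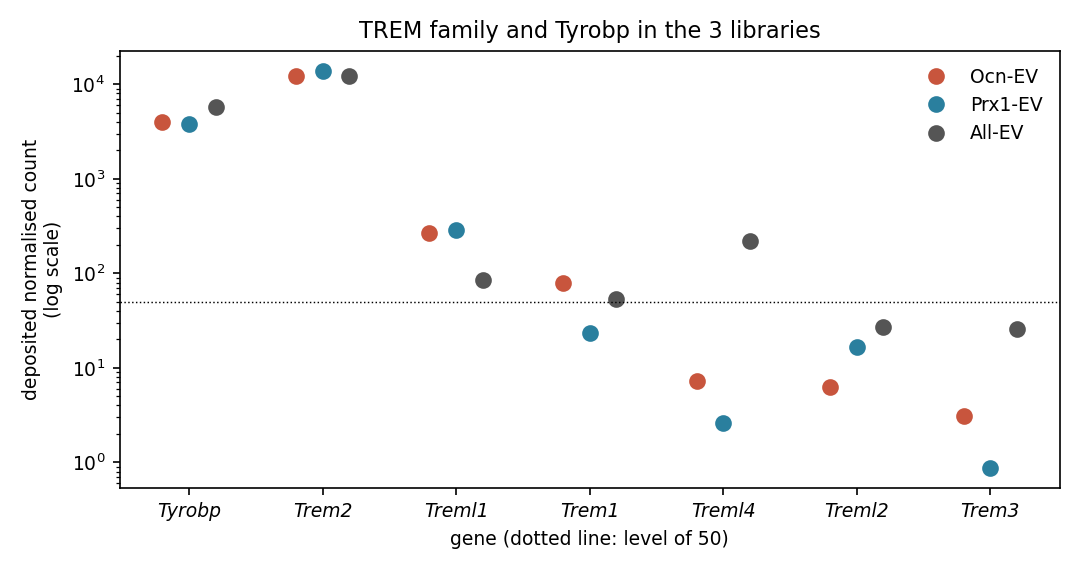
Deposited normalised counts (log scale) of the 7 genes, 1 point per library (Ocn-EV, Prx1-EV, All-EV), with a dotted line at a level of 50. Trem2 lies between 12339 and 13968 in all 3 libraries, whereas Treml4 stands at 217 in All-EV and at 7.25 and 2.62 in Ocn-EV and Prx1-EV.

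The receptor and its adaptor therefore stood in different proportion in the 3 libraries. Trem2 had 3.09 normalised counts for each of Tyrobp with Ocn-EV (2.98 to 3.2) and 3.69 with Prx1-EV (3.57 to 3.82), against 2.17 with All-EV (2.09 to 2.24). This ratio within a library does not depend on the scaling between libraries. Per kb of the longest annotated transcript, a level that allows genes to be compared, Tyrobp was above Trem2 in every library, at 6722 against 2591 with Ocn-EV, 6342 against 2920 with Prx1-EV and 9546 against 2579 with All-EV. That transcript of Trem2 is a retained-intron model of 4784 bases. Per kb of the longest protein-coding transcript (1088 bases, chosen after the data were seen) Trem2 was above Tyrobp, at 11394, 12838 and 11341 in the same 3 libraries, so the order of the pair rests on the transcript model. By level per kb of the longest transcript, Tyrobp ranked 82, 90 and 88 among 24390 genes in the Ocn-EV, Prx1-EV and All-EV libraries, and Trem2 ranked 273, 247 and 349.

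Relative to general macrophage genes, Trem2 and Tyrobp took different values in the 3 libraries. The normalised count of Trem2 divided by that of Ptprc, the leukocyte phosphatase CD45, was 3.06 with Ocn-EV and 3.25 with Prx1-EV, against 3.40 with All-EV, and divided by that of the lysosomal protein gene Cd68 it was 0.482 and 0.483, against 0.517. Tyrobp divided by Ptprc was 0.990 and 0.882, against 1.57, and divided by Cd68 it was 0.156 and 0.131, against 0.239. Both patterns depend on the marker. Divided by Adgre1, which encodes F4/80, Trem2 was 1.01 and 1.22, against 0.616, and Tyrobp was 0.326 and 0.330, against 0.285. Divided by Csf1r, which encodes the receptor for the macrophage growth factor, Trem2 was 0.977 and 1.37, against 1.43, and Tyrobp was 0.316 and 0.371, against 0.662. The 10 macrophage markers themselves ran from −1.44 to 1.34 in log2 ratio for Ocn-EV against All-EV (median 0.13) and from −1.79 to 1.34 when Prx1-EV was set against All-EV (median 0.24). The part of macrophage number in the levels of the members was not tested.

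Treml4 was far lower, and Treml1 higher, in both cultures than in the control. Treml4, a receptor of macrophages and dendritic cells that binds dead cells and, in mice, strengthens Toll-like receptor 7 signalling, stood at 7.25 with Ocn-EV (7 reads) and 2.62 with Prx1-EV (3 reads), against 217 with All-EV (192 reads). The level was 30.0-fold lower with Ocn-EV (14.3 to 75.6) and 83.0-fold lower with Prx1-EV (28.0 to 406). Of the 11067 genes whose mean level reached 50, 7 had a lower log2 ratio than Treml4 in the Ocn-EV comparison with All-EV and 2 in that of Prx1-EV. Treml4 met that mean only through its All-EV level, and both comparisons share the All-EV library. Between Ocn-EV and Prx1-EV its counts were too few to separate, with a ratio of 2.77 and an interval of 0.632 to 16.6. The 6 dendritic markers had 13, 41 and 7 reads in all with Ocn-EV, Prx1-EV and All-EV, of which Zbtb46 gave 10, 39 and 2, and Siglech and Cd209a were at 0 throughout; the part of dendritic cells in the Treml4 level was not tested.

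Treml1, known for its protein in platelet granules and, unlike Trem2, for an inhibitory motif in its own tail, stood at 266 with Ocn-EV and 284 with Prx1-EV, against 86.0 with All-EV (257, 326 and 76 reads). It was 3.09-fold higher with Ocn-EV (2.39 to 4.05) and 3.31-fold higher with Prx1-EV (2.57 to 4.30), and the Ocn-EV and Prx1-EV levels did not differ beyond counting error (0.936, 0.791 to 1.11). The 2 platelet and megakaryocyte markers with a mean level of at least 50 ran the other way. Pf4 stood at 1817 with Ocn-EV and 1577 with Prx1-EV, against 10461 with All-EV, Ppbp at 14.5 and 14.8, against 126. Of the scarcer markers, Gp1ba, with 31 and 23 reads against 3, stood higher. Itga2b had 11 and 31 reads against 36, and Gp1bb 5 and 6 against 4. The defining platelet genes Gp6 and Gp9 had no read in any library.

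**Figure D2:**
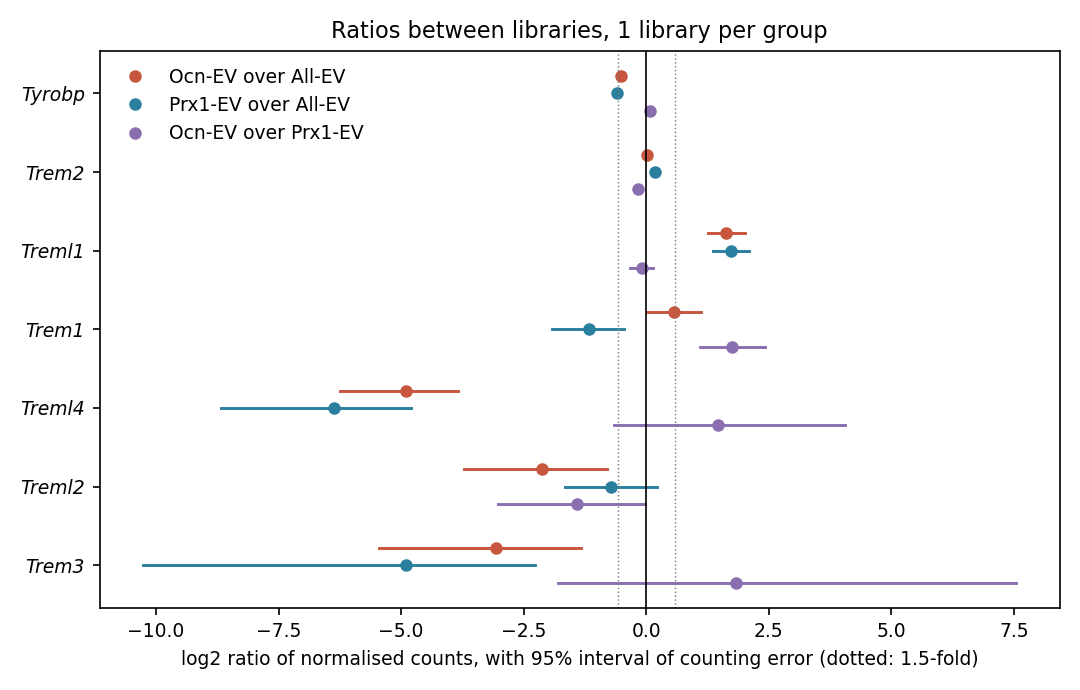
Log2 ratios of normalised counts without a pseudocount (points) for Ocn-EV over All-EV, Prx1-EV over All-EV and Ocn-EV over Prx1-EV, with lines for the 95% interval of counting error and dotted lines at 1.5-fold. Treml1 lies to the right of the dotted line in both comparisons with All-EV, Treml4 and Trem3 lie to the left, and Trem2 sits at or near 0.

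Trem1 differed between the Ocn-EV and Prx1-EV cultures. The gene encodes an amplifier of inflammatory responses on neutrophils and monocytes. It stood at 78.7 with Ocn-EV (76 reads) and 23.6 with Prx1-EV (27 reads), against 53.2 with All-EV (47 reads), so that the control lay between the other libraries. It was 3.34-fold higher with Ocn-EV than with Prx1-EV (2.13 to 5.39). Of the 11067 genes whose mean level reached 50, 6 had a higher log2 ratio in that comparison. The mean level of Trem1, 51.8, lies just above that limit and reached it through the high Ocn-EV value, so that rank supports nothing. Against All-EV it was 1.48-fold higher with Ocn-EV, with an interval of 1.02 to 2.18 that nearly reaches 1, and 2.26-fold lower with Prx1-EV (1.38 to 3.77). The macrophage markers ran from −0.17 (Cd68) to 0.60 (Cd14) in log2 ratio for Ocn-EV over Prx1-EV, with a median of 0.14.

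Trem3 and Treml2 were scarce. Trem3, a Tyrobp-paired receptor of mouse macrophages, had 3 reads with Ocn-EV and 1 with Prx1-EV, against 23 with All-EV. The drop was 8.38-fold with Ocn-EV (2.53 to 43.6) and 29.8-fold with Prx1-EV (4.84 to 1229). Treml2, a receptor of B cells, neutrophils and macrophages that is not known to need Tyrobp, had 6 reads with Ocn-EV and 19 with Prx1-EV, against 24 with All-EV. Its level with Ocn-EV was 4.37-fold below that with All-EV (1.74 to 13.1). With Prx1-EV it was 1.64-fold lower, and that interval (0.860 to 3.16) spans 1. Set against Prx1-EV, Treml2 was 2.67-fold lower with Ocn-EV (1.02 to 8.16), a range whose lower end is close to 1.

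By log2 ratio with a pseudocount of 1, 1 of the 7 genes was at least 1.5-fold higher with Ocn-EV than with All-EV and 3 were lower, where 22.3% of all 18745 genes with a read were higher and 19.4% lower. With Prx1-EV, 1 was higher and 5 were lower than with All-EV, against a background of 20.8% higher and 19.5% lower. With Ocn-EV, 3 were higher than with Prx1-EV and 1 was lower, against 14.0% and 11.1%. Among genes whose mean level reached 50, the share past 1.5-fold in either direction was 27.4% (Ocn-EV to All-EV), 25.3% (Prx1-EV to All-EV) and 3.54% (Ocn-EV to Prx1-EV). With equal totals, 2 of the 7 members were higher and 3 lower for Ocn-EV over All-EV and 1 higher and 3 lower for Prx1-EV over All-EV, since Trem1 passed the limit in the first and Tyrobp and Treml2 no longer did in the second. The counting interval of the ratio left out 1 for 6, 6 and 4 of the 7 genes in these comparisons, as it did for 46.1%, 45.9% and 25.9% of all genes with a read. Levels of 5 members reached a mean of 50, and Trem3 and Treml2 did not. The members were chosen with these ratios known, and the counts are a description.

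Along the cluster, the ratios to All-EV did not follow a common direction. From Trem1 to Treml2, the log2 ratios with Ocn-EV were 0.56 (Trem1), −2.72 (Trem3), −4.73 (Treml4) and −1.97 (Treml2). With Prx1-EV they were −1.14, −3.85, −5.92 and −0.68 in the same order. The interval of the last value, for Treml2, spans 0 (−1.66 to 0.22). Trem3 and Treml2 rest on 24 reads or fewer a library. At the far end Trem2 stood at 0.01 and 0.18 and Treml1 at 1.62 and 1.71. Within 200 kb of a receptor gene the table held 10 other genes, of which 4 had a mean level of at least 50. Nfya, a subunit of the CCAAT-binding factor NF-Y, stood at 0.52 with Ocn-EV and 0.60 with Prx1-EV against All-EV. Oard1, an ADP-ribose hydrolase, stood at −0.10 (−0.40 to 0.21) and −0.40 (−0.71 to −0.09). The uncharacterised gene B430306N03Rik, between Treml2 and Trem2 and named after its values were seen, stood at 0.44 and 0.35, with 1450 and 1355 normalised counts against 1066. A530064D06Rik, likewise named afterwards, stood at 0.46 and 0.35. The other 6 genes of the stretch had at most 6 reads in any library.

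**Figure D3:**
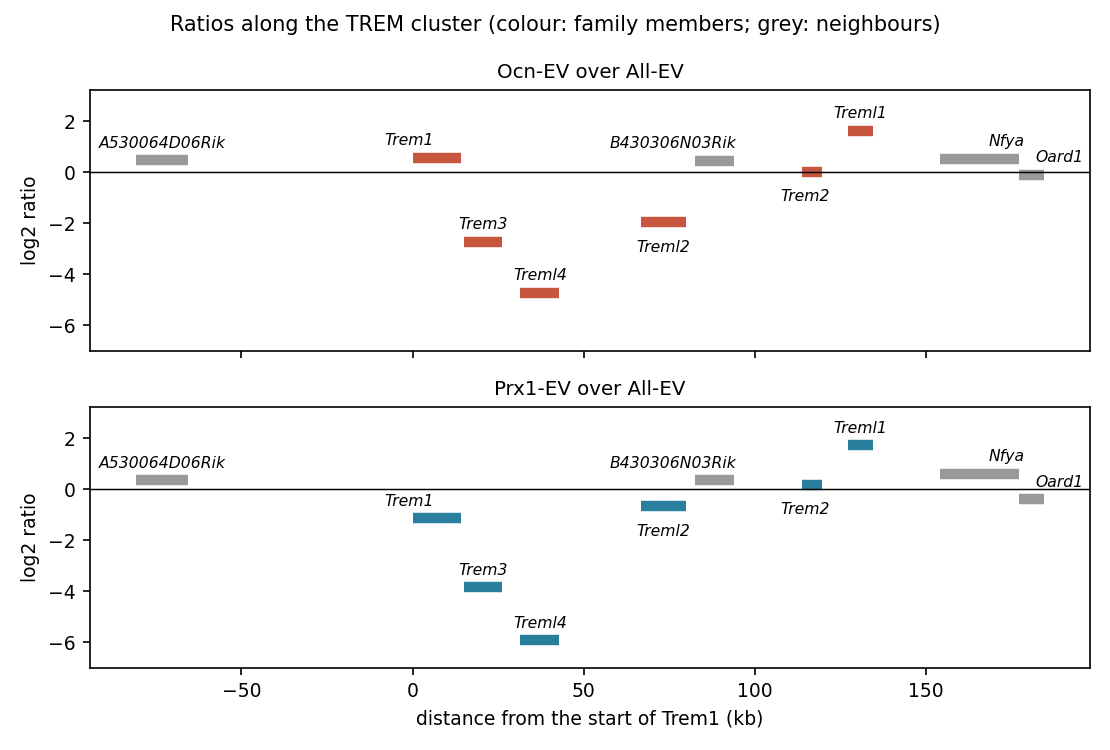
Log2 ratios (pseudocount 1) of Ocn-EV over All-EV (top) and Prx1-EV over All-EV (bottom) for the 6 receptor genes (coloured) and the 4 neighbours with a mean level of at least 50 (grey), drawn at their distance in kb from the start of Trem1. Trem3 and Treml4 lie lowest and Treml1, at the far end of the cluster, highest.

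The other genes of the pathway were counted over members with a mean level of at least 50. Of all 11067 such genes, 13.8% were at least 1.5-fold higher and 13.6% lower with Ocn-EV than with All-EV (1528 and 1506 genes, or 2736 and 736 with equal totals), and 12.7% were higher and 12.7% lower with Prx1-EV than with All-EV (1400 and 1402 genes, or 2539 and 720 with equal totals). Between Ocn-EV and Prx1-EV, 2.24% were higher and 1.3% lower. The median log2 ratio of all these genes was −0.02, 0.00 and −0.01 in the 3 comparisons.

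Other receptors listed as pairing with Tyrobp were counted together with Csf1r. Of these, 1 of 8 was higher and 4 were lower in each comparison with All-EV (medians −0.48 for Ocn-EV and −0.61 for Prx1-EV). The higher gene was Cd300lb, an activating receptor of myeloid cells, at 4139 with Ocn-EV and 3781 with Prx1-EV, against 1575 with All-EV. Sirpb1c, Sirpb1a and Sirpb1b, signal-regulatory receptors, were lower. Sirpb1c stood at 163 and 229, against 1040, and Sirpb1b at 89.0 and 39.3, against 174. These 3 genes share 67.3%, 54.5% and 72.2% of their 31-base words with other genes, so reads may be split between them and their single values are uncertain. Cd200r4, a Tyrobp-paired relative of the CD200 receptor, was also lower, at 1013 and 1281 against 2430. Clec5a, the C-type lectin of macrophages that signals through Tyrobp, stood at 276 and 229, against 275. Csf1r itself, which also signals with Tyrobp, stood at 12692 and 10202, against 8608, with log2 ratios of 0.56 and 0.25.

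Of the companion adaptors, both with a mean level of 50 or more lay within 1.5-fold of All-EV. Fcer1g, which carries the same kind of activation motif for Fc receptors, had log2 ratios of −0.34 with Ocn-EV and −0.42 with Prx1-EV, and Hcst, the adaptor DAP10 whose gene lies next to Tyrobp, −0.48 and −0.31. The interval for Hcst with Prx1-EV spans 0 (−0.70 to 0.08). The 6 other adaptors of the list had a mean level below 50. Among these Cd79b, which serves the B cell receptor, ran the other way, at 26 (Ocn-EV) and 28 (Prx1-EV) reads against 4 (All-EV), and Cd3e and Cd3d had none.

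Downstream kinases and effectors lay on both sides of their control levels. With Ocn-EV 6 of 29 were higher and 3 lower relative to All-EV (median 0.10), and with Prx1-EV 5 were higher and 2 lower (median 0.15). Syk, the kinase that binds the activation motif, stood at 6027 and 5633, against 6126. Of the Src family kinases that phosphorylate that motif, Fgr stood at 32.1 and 32.3, against 113, and Src at 590.2 and 571, against 1253. Pik3cd, a leukocyte catalytic subunit of PI3-kinase, stood at 1121 and 1277, against 658. With equal totals 12 and 11 of the 29 were past 1.5-fold, against 9 and 7 as deposited. Between Ocn-EV and Prx1-EV no gene of this list was 1.5-fold apart.

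Genes that restrain the pathway included phosphatases at higher levels. With Ocn-EV 4 of 14 were higher and 1 lower relative to All-EV (median 0.30), and with Prx1-EV 3 were higher and 1 lower (median 0.18). The phosphatase SHP-1 gene Ptpn6 stood at 1843 and 1752, against 989, the lipid phosphatase SHIP1 gene Inpp5d at 2610 and 2472, against 1487, and the ubiquitin ligase gene Cbl at 3101 and 3334, against 1870. The lower gene was Pilra, an inhibitory receptor, at 306 and 290.5, against 1109. With equal totals 8 and 7 members of this list were at least 1.5-fold apart from All-EV, against 5 and 4 as deposited.

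Ligands and partners of the receptors were split. In each comparison with All-EV 3 of 10 were higher and 2 lower (medians −0.04 and 0.00). Apoe, the lipoprotein gene whose product binds Trem2, stood at 127990 with Ocn-EV and 115619 with Prx1-EV, against 42169 with All-EV, and its log2 ratios of 1.6 and 1.46 were the highest of the list. Sema6d, a semaphorin that signals through plexin A1 with Trem2 and Tyrobp in osteoclasts, stood at 172 and 124, against 74.7. The gene of that plexin, Plxna1, stood at 13288 and 15336, against 29080. Hspd1, a mitochondrial chaperone reported to bind Trem2, had log2 ratios of −0.86 and −0.61, and the TGF-beta receptor gene Tgfbr1 0.61 and 0.70. Pglyrp1, whose product binds Trem1, had 0, 3 and 3 reads in the Ocn-EV, Prx1-EV and All-EV libraries.

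The proteases that cut Trem2 from the surface and process its stub lay within 1.5-fold of All-EV in both comparisons, all 10 of 10 (medians 0.01 and 0.09). Adam10 and Adam17, the sheddases, stood at 3443 and 3769 with Ocn-EV and 3399 and 3989 with Prx1-EV, against 3413 and 3460 with All-EV. The gamma-secretase subunit gene Psenen lay lowest, at −0.40 and −0.52.

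Genes reported to depend on Trem2 in mouse microglia showed no shared direction. With Ocn-EV 6 of 19 were higher and 5 lower relative to All-EV (median −0.04), and with Prx1-EV 5 were higher and 5 lower (median 0.02). Beside Apoe, the sterol hydroxylase gene Ch25h stood at 113 with Ocn-EV and 93.3 with Prx1-EV, against 49.8 with All-EV. The fatty acid binding protein gene Fabp5 stood at 3962 and 4850, against 10580, the protease gene Ctsl at 24856 and 26245, against 50996, and the chemokine gene Ccl6 at 1064 and 634, against 6877. Axl, a receptor for apoptotic cells, was not among the genes farthest out, at log2 ratios of 0.91 and 0.71.

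Osteoclast genes, for which Tyrobp-coupled receptors give a costimulatory signal, were split as well. With Ocn-EV 2 of 11 were higher and 4 lower relative to All-EV (median −0.06), and with Prx1-EV 3 were higher and 4 lower (median 0.05). Ctsk, the collagen-cutting protease of osteoclasts, stood at 843 and 967, against 4185, and the phosphatase gene Acp5 at 222 and 247, against 659. The integrin subunit gene Itgb3 stood at 809 and 939, against 1670. The remaining lower gene, Plxna1, is also counted among the ligands and partners above. Tnfrsf11a, which encodes the receptor RANK, stood at 849 and 958, against 412. Nfatc1, named after its values were seen, was also higher in both comparisons, at 691 and 631, against 399. The fusion gene Dcstamp and the calcitonin receptor gene Calcr had no read in any library, and Oscar had at most 2.

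**Figure D4:**
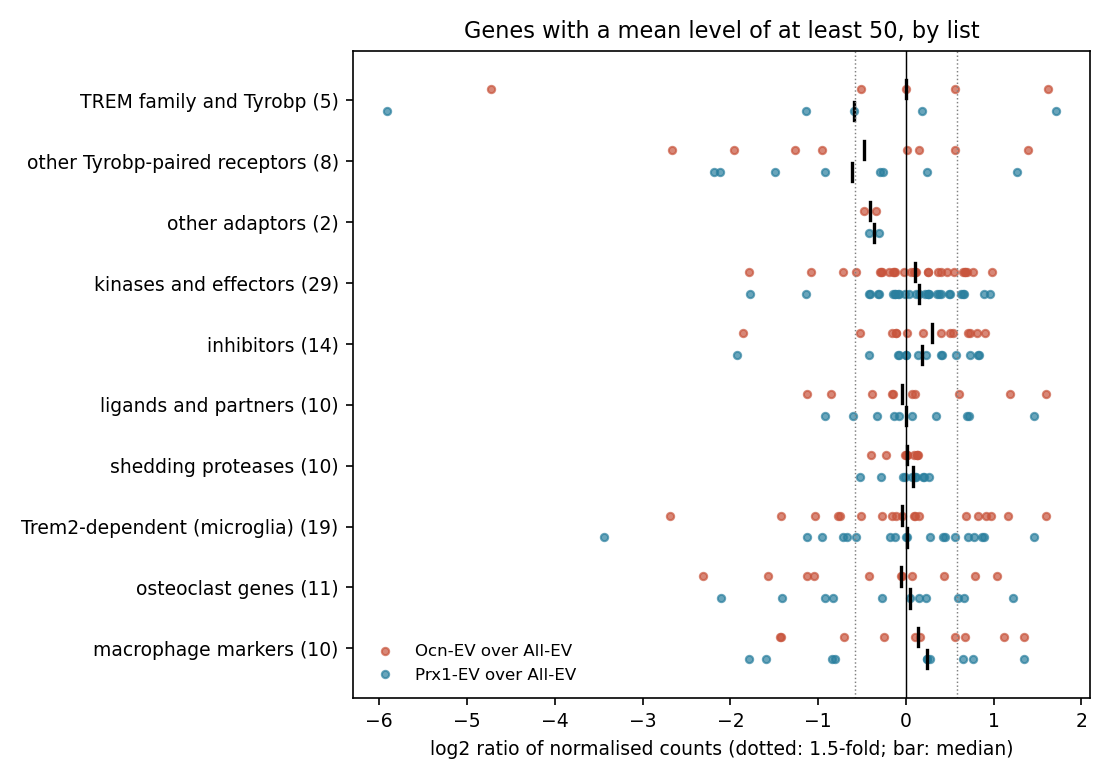
Log2 ratios (pseudocount 1) of single genes whose mean level reached 50, by list, for Ocn-EV over All-EV and Prx1-EV over All-EV, with black bars at the medians, dotted lines at 1.5-fold and the number of genes in brackets. The shedding proteases lie within the dotted lines. Treml4 of the TREM family (−4.73 and −5.92) lies farthest to the left of the genes drawn. It met the mean of 50 only through its All-EV level and was chosen with its values known, so that place supports nothing.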

How the data were processed

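Bulk messenger RNA of 3 stromal cell cultures was sequenced, and the labels' treatment entries set the groups. The authors deposited a normalised signal per gene for every library. Per the submitters' processing notes the tools were DESeq2 2.11.40.8, featureCounts 2.0.3, HISAT2 2.2.1, Trimmomatic 0.38.1 and FastQC 0.74, with build mm10; their settings, strand use included, are not given there. All values (100%) were whole multiples of the smallest value above 0 in their library at a tolerance of 1e-06, so whole reads were recovered by division.

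Of 27179 gene identifiers, 25275 matched a symbol in a RefSeq table of GRCm38.p6, the assembly of mm10, and 1904 did not. Lengths came from GENCODE vM21. Folds are plain ratios of deposited values, and log2 ratios carry a pseudocount of 1, which pulls low genes toward 0. Intervals (95%) are exact conditional binomial or Clopper-Pearson intervals of the recovered reads and cover counting error only, since each group is 1 library. They treat reads as independent, which could not be checked because no molecular identifiers mark independent molecules. Counting error may therefore be larger than they show. Lists were counted over genes whose mean value reached 50, at a fold of 1.5. The members, the lists and the named-gene rule were chosen with earlier results of these data known. The rule named all 7 members, the 4 list members farthest from 0 in each comparison with All-EV, neighbours within 200 kb at the filter, and the 3 genes with the closest profile to each member at the filter. An exact binomial test of read counts (Benjamini-Hochberg adjusted), added after the data were seen, called 7134 and 7092 of 11067 genes for Ocn-EV and for Prx1-EV relative to All-EV, and 2840 between Ocn-EV and Prx1-EV; it compares libraries, not conditions, and no statement rests on it. TMM factors came from edgeR 4.0.16. Calculations were run in Python 3.11.15 and R 4.3.3 and were tested on simulated data. Some genes that the rule or the marker lists named are not reported here.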

Additional observations from a re-analysis of the deposited data

How the results depend on the processing

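No paired analysis was possible because each group is 1 library, and no replicate could be left out. Pseudocounts of 0.5 and 5 and TMM factors left all 21 log2 ratios of the members within their counting interval. With libraries set to equal totals, 17 of 21 did, and those of Trem2 (0.26 with Ocn-EV and 0.40 with Prx1-EV against All-EV) and Tyrobp (−0.25 and −0.37) moved beyond it; no ratio outside counting error changed direction. Family genes past 1.5-fold then numbered 2 higher with Ocn-EV (1 as deposited) and 3 lower with Prx1-EV (5 as deposited), each relative to All-EV. The counts over all genes moved with that scaling as well, as given below. Without Lyz2, a choice made after the data were seen, macrophage markers took 0.472% (Ocn-EV), 0.451% (Prx1-EV) and 0.474% (All-EV) of reads. The level of Trem2 per kb, averaged over the libraries, was 2697 with the longest transcript, 6923 with the mean transcript length and 11857 with the longest coding transcript. With the mean length, Tyrobp had 7776, Treml1 193, Treml4 81.5, Trem1 20.4 and Treml2 8.50.

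Gene counts past 1.5-fold depended on the filter and the scaling. With Ocn-EV against All-EV, 2333 genes were higher at a mean of at least 10, 4173 were higher and 3642 lower with no filter beyond 1 read, and equal totals gave 2736 higher and 736 lower. With Prx1-EV against All-EV, 3892 were higher and 3661 lower with no filter, and 2539 and 720 with equal totals. With Ocn-EV against Prx1-EV, 843 and 511 passed at a mean of at least 10, and 2630 and 2082 with no filter. Of the 72 list counts, 57 stayed within 1.5 times. With no filter, the Tyrobp-paired receptors had 9 members apart in each comparison with All-EV and 3 between Ocn-EV and Prx1-EV (2 at a mean of at least 10), and the adaptors had 4 (Ocn-EV to All-EV), 3 (Prx1-EV to All-EV) and 2 (Ocn-EV to Prx1-EV), with 1 in each comparison with All-EV at a mean of at least 10. With no filter, between Ocn-EV and Prx1-EV, ligands had 2, microglial genes 2 and osteoclast genes 1. With equal totals, kinases and effectors had 11 for Prx1-EV, and inhibitors 8 for Ocn-EV and 7 for Prx1-EV, each relative to All-EV. Depth limits Trem3, Treml2 and, outside the control, Treml4, which rest on 24 reads or fewer a library.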

Other observations

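The genes with the profile closest to each member over the 3 libraries were listed by the Euclidean distance of log2(value + 1), each profile centred on its own mean. For Treml4 they were Slpi (distance 0.37), Mirt2 (0.67) and Tarm1 (0.70), and Slpi was the only gene within 0.5. Slpi stood at 25.9 with Ocn-EV and 15.7 with Prx1-EV, against 788 with All-EV. For Treml1 they were Zbp1 (0.05), Ifi44 (0.06) and Olfr111 (0.07), with 356 genes within 0.5. Zbp1 stood at 224 and 230, against 69.0. For Trem1 they were Znrd1as (0.30), Acot1 (0.36) and Smpdl3b (0.40), with 5 genes within 0.5, and Znrd1as stood at 75.6 and 27.0, against 69.0. Trem2 (nearest Slc5a6, Phgdh and Heatr3) and Tyrobp (nearest Fam104a, Cetn3 and Yaf2) had 7733 and 5520 genes within that distance, so their profiles single out no gene. With 3 libraries such likeness is a description only.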
